A study of Mus musculus with 9 samples.

Results

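Intestinal crypt epithelium of 2 mutant mouse sets was compared across the 6 libraries whose titles carry a β-catenin mutation, out of 9 libraries in the study, over the 11834 of 24930 gene symbols that reached at least 1 FPKM in at least 3 of these 6 libraries. FPKM divides a gene's fragments by the length of its transcript and the depth of the library, so levels can be compared between genes. The study measured poly(A) RNA of mouse crypt epithelium 8, 9 and 10 days after 1 mutant copy of Ctnnb1, which encodes β-catenin, was induced. Each of the 3 groups, titled Control, Bcathet and Cdx2het_Bcathet, had 1 library per day. The titles describe the Bcathet set as heterozygous for the β-catenin mutation and the Cdx2het_Bcathet set as heterozygous for that mutation and for Cdx2. The library names say the opposite: they carry CDX2HET and EXON3 for the set titled Bcathet, and EXON3 alone for the set titled Cdx2het_Bcathet. Titles and library names thus disagree about the set with the Cdx2 allele, and every direction below is given by title, as Cdx2het_Bcathet minus Bcathet. All 6 mutant libraries share the induced β-catenin allele. The driver and agent of induction, the strain, the age and the segment of intestine are not given in the labels. Nor do the labels say whether libraries came from separate animals, so a p-value here reflects only library-to-library spread, which may in part be technical.

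β-catenin carries the WNT signal into the nucleus, where it acts with TCF and LEF factors on target genes, and WNT signalling maintains the stem cells and Paneth cells at the base of the intestinal crypt. Alleles that lack exon 3 of Ctnnb1 make a protein that escapes degradation, so the pathway stays active without ligand. CDX2 is a homeobox transcription factor that holds intestinal epithelium in its intestinal state, and epithelium that loses it turns on genes of the stomach.

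The genes of the sample names were read first. Cdx2 was at 126, 131 and 144 FPKM at days 8, 9 and 10 of the Bcathet set, at 188, 178 and 196 in the Cdx2het_Bcathet set and at 139, 114 and 108 in the controls. The Cdx2het_Bcathet set, whose titles name a Cdx2 allele, thus had the higher Cdx2 level, and its lowest library lay above every Bcathet and control library. The ratio of the mean levels was 1.4, the log2 difference was 0.48 ± 0.10 (SE), and the two-sided exact permutation p was 0.1, the smallest that 3 libraries against 3 allow. Across all genes the difference did not pass limma's test (adjusted p = 0.899). Ctnnb1 was at 218, 211 and 239 FPKM in the Bcathet set and at 223, 235 and 239 in the Cdx2het_Bcathet set, and the sets overlapped (ratio of means 1.04, two-sided exact permutation p = 0.4). A value per gene adds both alleles and all exons, so neither gene decides between the titles and the library names.

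The 6 libraries did not fall into their 2 sets. Over the 11834 genes, the root-mean-square difference on log2(FPKM + 1) was smallest, of all 36 pairs of libraries in the study, between the 2 mutant libraries of day 10, at 0.271. The day 8 and day 10 libraries of Cdx2het_Bcathet differed by 0.291, and the day 8 and day 9 libraries of Bcathet by 0.299. The day 9 library of Cdx2het_Bcathet stood apart, at 0.5 and 0.539 from the other libraries of its set and at 0.4 to 0.451 from the controls, and its distance of 0.568 from the day 10 library of Bcathet was the largest of all pairs. That library also had Xist, the RNA of the silenced X chromosome, at 0.1 FPKM against 27.0 to 39.4 in the other 8 libraries. Its 4 Y-linked genes Ddx3y, Eif2s3y, Kdm5d and Uty summed to 41.7 FPKM, against at most 0.047 elsewhere. Xist near 0 with RNA of Y-linked genes is the pattern of male tissue, and the other 8 libraries show the female pattern. Every day 9 difference below thus sets a library of male pattern against 1 of female pattern. Sex and set cannot be told apart there. Differences that this library moves by over 1.5 times are given with and without it.

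**Figure D1:**
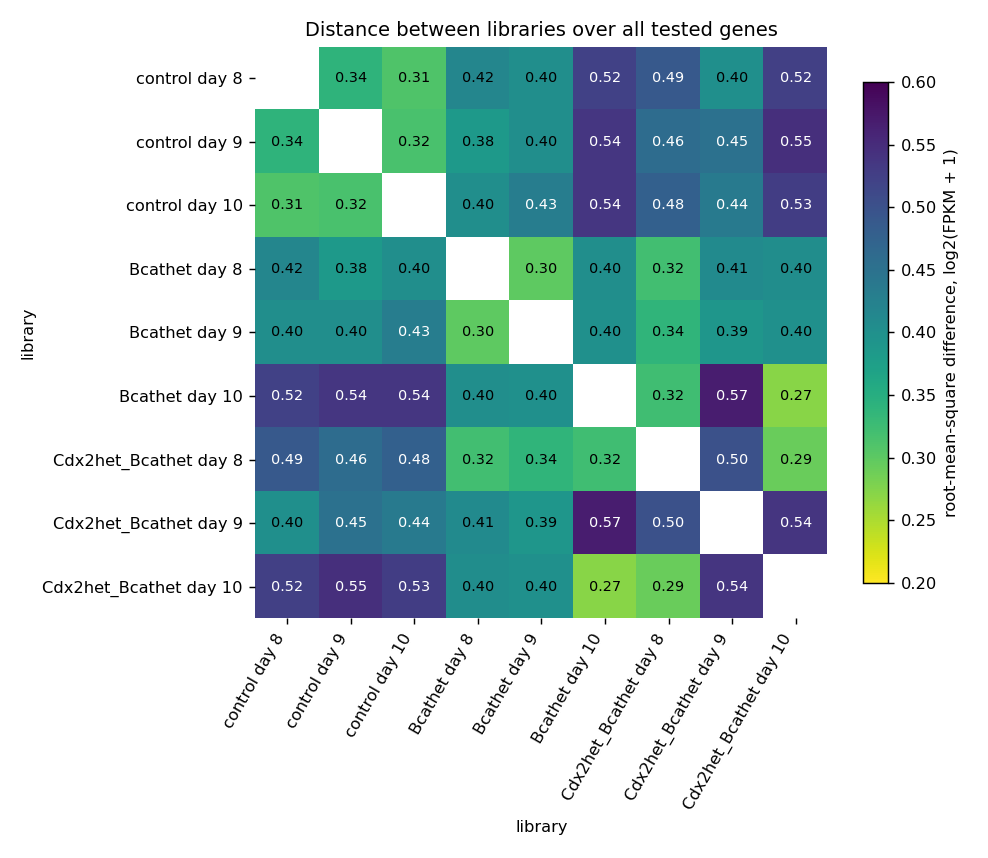
Root-mean-square difference of log2(FPKM + 1) between each pair of the 9 libraries over 11834 genes; darker cells are larger differences. The 2 day 10 mutant libraries are the closest pair at 0.271, and the day 9 library of Cdx2het_Bcathet is at 0.5 and 0.539 from the other libraries of its set.

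In limma, with all 9 libraries in a model of group means, none of the 11834 genes passed an adjusted p of 0.05 (0% called). An unadjusted p under 0.05 was reached by 372 genes, 202 higher and 170 lower in Cdx2het_Bcathet, and the smallest adjusted p was 0.103. With no difference between the sets, a share of 0.05 of all genes would be expected at this cut, which is more than was found. This also holds for the other counts over all genes at this cut given below. In 375 genes every Cdx2het_Bcathet library lay above every Bcathet library (3.17% of genes), and in 364 every one lay below (3.08%). That balance depends on the scaling, since with all libraries rescaled to the same total the counts were 147 and 538. Without the day 9 library of Cdx2het_Bcathet 0 genes passed and 528 had an unadjusted p under 0.05. The genes named in the next 2 paragraphs are those with the smallest p among well-expressed genes whose sets do not overlap, so the gap between their sets is how they were chosen and none of them passed over all genes.

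Higher in Cdx2het_Bcathet were a gut hormone gene, a gastrokine gene and several metabolic enzymes. Ghrl, which encodes the appetite hormone ghrelin, was at 34.5, 29.9 and 28.0 FPKM at days 8, 9 and 10 in Bcathet, at 58.3, 59.7 and 56.4 in Cdx2het_Bcathet and at 53.8, 63.9 and 48.4 in the controls. The Bcathet set was the low one: all its libraries lay below every control, while the Cdx2het_Bcathet libraries lay within the control range. The difference was 0.90 ± 0.11 on the log2 scale (adjusted p = 0.181). Gkn3, a member of the gastrokine family of secreted proteins that also marks crypt base cells, was at 31.5, 28.2 and 20.2 FPKM in Bcathet and at 46.2, 66.8 and 60.6 in Cdx2het_Bcathet, against 17.7, 15.1 and 17.4 in the controls. Both mutant sets lay above the controls, and the difference between the sets was 1.10 ± 0.18 (adjusted p = 0.384). Tst, the mitochondrial sulfur-transfer enzyme rhodanese, was at 19.0, 15.2 and 16.5 FPKM in Bcathet, near the controls at 15.5, 17.1 and 16.2, and at 25.1, 30.7 and 26.9 in Cdx2het_Bcathet (0.67 ± 0.10, adjusted p = 0.253). Smox, which oxidises spermine, and Cdo1, which oxidises cysteine, differed by 0.34 ± 0.07 and 0.48 ± 0.10. Samd9l, an interferon-inducible gene, was at 4.98, 6.74 and 4.08 FPKM in Bcathet and 9.55, 9.94 and 12.0 in Cdx2het_Bcathet (0.89 ± 0.18). Clic4, of the chloride intracellular channel family, and Pkdcc, a secreted kinase, differed by 0.45 ± 0.10 and 0.38 ± 0.09. The adjusted p of Samd9l, Smox, Cdo1, Clic4 and Pkdcc was 0.899.

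Lower in Cdx2het_Bcathet were a myosin light chain, a translation repressor and an actin-binding protein gene, among others. Myl7, the atrial myosin regulatory light chain, was at 35.2, 37.1 and 31.2 FPKM in Bcathet, at 12.6, 18.6 and 16.3 in Cdx2het_Bcathet and at 17.6, 17.7 and 14.0 in the controls. The Bcathet libraries were all above the controls and the Cdx2het_Bcathet libraries near them, with a difference of -1.09 ± 0.15 (adjusted p = 0.206). Eif4ebp3, of the family that blocks the cap-binding initiation factor, showed the same order, at 22.3, 26.0 and 25.1 FPKM in Bcathet, 18.5, 16.3 and 17.0 in Cdx2het_Bcathet and 15.8, 16.5 and 16.4 in the controls (-0.48 ± 0.07, adjusted p = 0.311). Marcks, a substrate of protein kinase C that binds actin, was at 24.1 to 32.0 FPKM in Bcathet and at 17.8 to 20.8 in Cdx2het_Bcathet (-0.48 ± 0.12), and L1cam, a neural cell adhesion molecule, differed by -0.40 ± 0.10. Hdac10, a deacetylase, Vsig10, an immunoglobulin-domain protein, and Mfsd6l, of a transporter superfamily, differed by -0.24 ± 0.06, -0.60 ± 0.15 and -0.39 ± 0.10. The small nucleolar RNA entry Snord104 differed by -0.39 ± 0.09; such entries lie inside host genes, and in a poly(A) library their reads cannot be told from those of the host. The adjusted p of these 6 genes was 0.899. The gene with the smallest p of all, 2610528A11Rik, lay below the level cut for named genes and was chosen after its values were seen. Known as the gene of a ligand of the receptor GPR15, it was at 3.86, 3.64 and 3.55 FPKM in Bcathet, 1.39, 1.42 and 1.67 in Cdx2het_Bcathet and 2.79, 2.81 and 3.43 in the controls (-0.91 ± 0.10, adjusted p = 0.103).

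**Figure D2:**
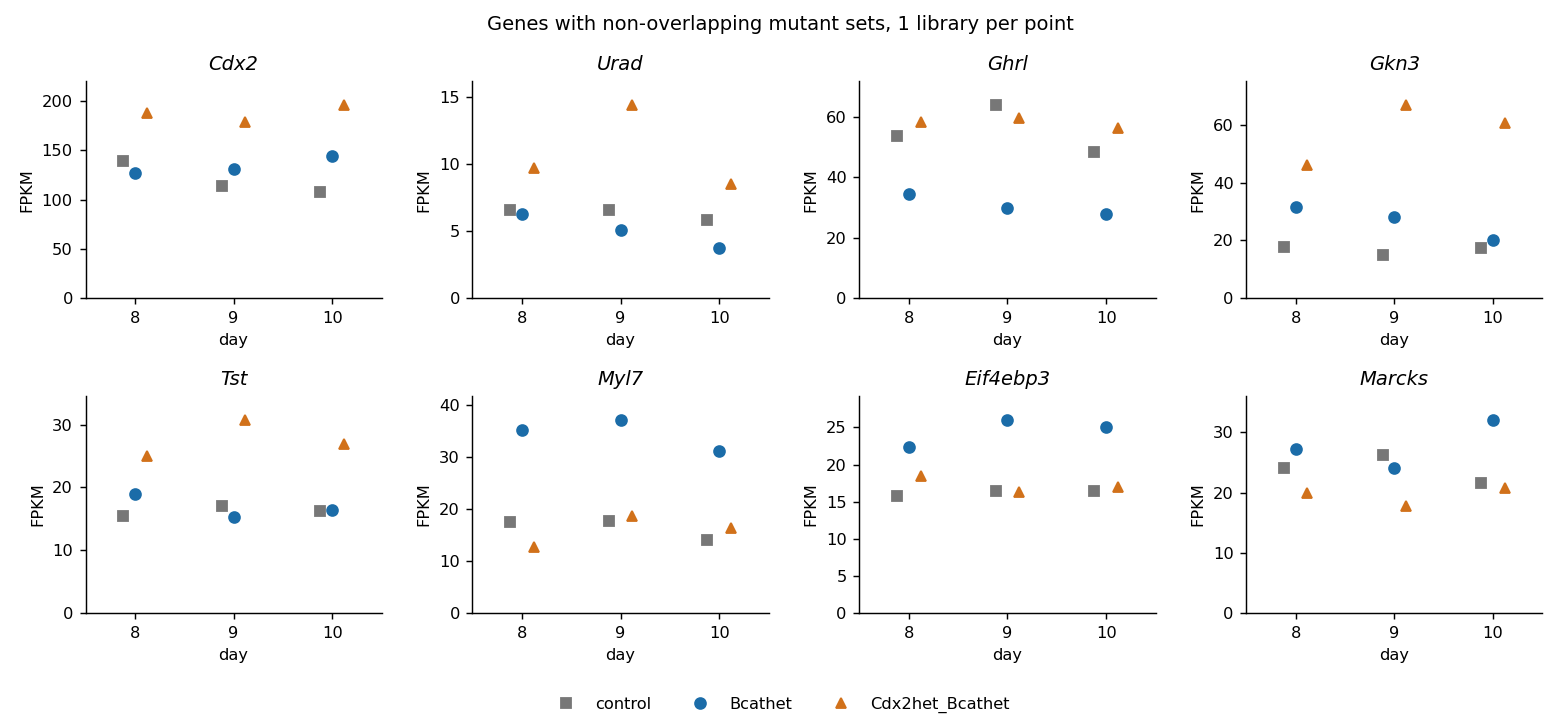
FPKM by day for 8 genes with non-overlapping mutant sets, 1 library per point: grey squares are controls, blue circles Bcathet, orange triangles Cdx2het_Bcathet, and every axis starts at 0. Cdx2, Urad, Ghrl, Gkn3 and Tst are higher and Myl7, Eif4ebp3 and Marcks lower in all 3 Cdx2het_Bcathet libraries than in any Bcathet library.

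Genes that lie beside Cdx2 were read next, with RefSeq gene order (assembly GRCm38.p6) used for adjacency only. Of 21 tested genes in the stretch of 10 on each side of Cdx2, 5 had every Cdx2het_Bcathet library above every Bcathet library (3.17% of all tested genes) and 0 had every one below (3.08% of all). They were Cdx2, Urad, Gtf3a, Rasl11a and Usp12. Urad, which encodes an enzyme of urate breakdown, is the next tested gene beyond Cdx2. It was at 6.28, 5.05 and 3.74 FPKM in Bcathet, 9.7, 14.4 and 8.51 in Cdx2het_Bcathet and 6.54, 6.57 and 5.83 in the controls (0.97 ± 0.20, adjusted p = 0.899). Gtf3a, a transcription factor for 5S ribosomal RNA, was at 38.0, 36.4 and 32.0 FPKM in Bcathet and 48.2, 53.7 and 41.6 in Cdx2het_Bcathet (0.42 ± 0.10). Rasl11a, a small GTPase, and Usp12, a deubiquitinase, differed by 0.48 ± 0.16 and 0.21 ± 0.08. Others of the stretch overlapped between the sets, among them Pdx1, a homeobox gene of duodenum and pancreas, at 16.9, 30.0 and 25.0 FPKM in Bcathet and 22.8, 29.2 and 21.3 in Cdx2het_Bcathet, and Polr1d, a polymerase subunit, at 120.2, 131 and 124 in Bcathet and 133, 119 and 129 in Cdx2het_Bcathet. This stretch was read after the Cdx2 and Urad values were known, and both genes are among the 5, so the share over all genes is no test of this count.

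A second stretch held several genes that were lower in Cdx2het_Bcathet. Ints7, Lpgat1, Nek2, 1700034H15Rik and Slc30a1 follow each other in RefSeq order among tested genes on chromosome 1, and 2 of them, Ints7 and Nek2, were among the genes named by their p. Nek2, a kinase that splits centrosomes at mitosis, was at 30.9, 35.9 and 24.3 FPKM in Bcathet, 16.8, 15.6 and 21.6 in Cdx2het_Bcathet and 17.2, 19.8 and 18.4 in the controls (-0.72 ± 0.16, adjusted p = 0.899). Ints7, a subunit of the Integrator complex, was at 24.1, 25.3 and 18.0 FPKM in Bcathet and 12.0, 11.7 and 16.7 in Cdx2het_Bcathet, against 11.7, 13.6 and 12.9 in the controls (-0.70 ± 0.16). In both genes the day 8 and day 9 libraries of Bcathet were highest, the 2 libraries of day 10 lay between, and the other Cdx2het_Bcathet libraries were at or near the control level. Lpgat1, a lysophosphatidylglycerol acyltransferase, was at 63.1, 95.5 and 73.7 FPKM in Bcathet and 36.0, 37.8 and 73.1 in Cdx2het_Bcathet, with its day 10 values almost equal, so its sets overlapped (-0.71 ± 0.29). Slc30a1, a zinc exporter, was at 10.6, 17.0 and 10.7 FPKM in Bcathet and 6.28, 6.38 and 10.2 in Cdx2het_Bcathet (-0.67 ± 0.22), and 1700034H15Rik at 7.08, 10.6 and 3.02 in Bcathet and 0.375, 0.735 and 2.85 in Cdx2het_Bcathet (-1.79 ± 0.46). Beyond them the levels of the sets overlapped in 7 of the other 8 tested genes of the window: Ppp2r5a, a phosphatase subunit, was at 40.3, 39.1 and 39.2 FPKM in Bcathet and 39.7, 37.3 and 40.3 in Cdx2het_Bcathet, Dtl at 8.58, 7.6 and 7.16 in Bcathet and 6.58, 7.26 and 7.28 in Cdx2het_Bcathet, and Rcor3 at 6.06, 5.5 and 5.89 in Bcathet and 4.94, 5.81 and 5.4 in Cdx2het_Bcathet. In a window of 13 tested genes centred on Nek2, 5 had every Cdx2het_Bcathet library below every Bcathet library (3.08% of all tested genes) and 0 had every one above (3.17% of all); the fifth is Gm10516, a predicted gene further along. This stretch was chosen after its values were seen. The 5 include Nek2 and Ints7, which were themselves picked for sets that do not overlap, so the share over all genes is no test of this count. One other run of 3 adjacent tested genes without overlap was found, 1700028J19Rik, 2410002F23Rik and Snord88c on chromosome 7, also lower in Cdx2het_Bcathet.

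**Figure D3:**
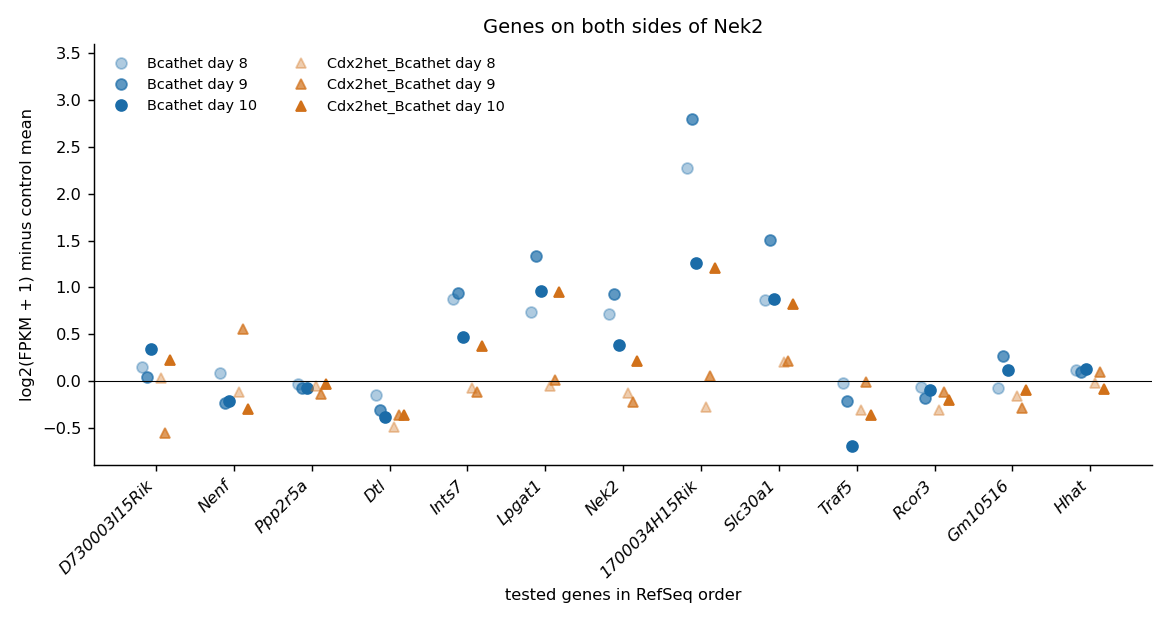
Level of 13 neighbouring tested genes, in RefSeq order, as log2(FPKM + 1) minus the control mean; blue circles are Bcathet and orange triangles Cdx2het_Bcathet, with darker colour for later days. From Ints7 to Slc30a1 the 3 Bcathet libraries and the day 10 library of Cdx2het_Bcathet lie above the line, and the genes on both sides show no such shift upward.

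The difference between the sets changed from day to day. With 1 library per set and day there is no replicate check of a single day, so values of single days are descriptions. At day 8, 83 genes were higher by 1 or more on the log2 scale in Cdx2het_Bcathet (0.701%) and 103 lower (0.87%). At day 9 these counts were 218 (1.84%) and 124 (1.05%), and at day 10 they were 73 (0.617%) and 62 (0.524%). The differences of the 3 days shared little: across genes, which are not independent replicates, Pearson's r was -0.229 between days 8 and 9, 0.119 between days 8 and 10, and 0.155 between days 9 and 10. The difference had the same sign on all days in 1462 genes that were higher and 1362 that were lower. Each of these counts is below what even signs, independent between days, would give over the 11834 genes. The difference reached 1 on all days in 3 and 7 genes. Among well-expressed genes, the 6 that were upward on every day with the largest value of the smallest daily difference were Ifitm1, Nkd1, Clu, Ghrl, Urad and Vsig2. Ifitm1, an interferon-induced membrane protein gene, was at 8.98, 4.7 and 0.903 FPKM in Bcathet and 16.5, 58.0 and 5.87 in Cdx2het_Bcathet (2.01 ± 0.83, adjusted p = 1, and 1.20 ± 0.72 without the day 9 library of Cdx2het_Bcathet). Its Cdx2het_Bcathet library of day 10 lay below the Bcathet library of day 8, so the sets overlapped although the pair of each day had the same order. Clu, which marks regenerating crypt cells, was at 8.95, 7.09 and 1.42 FPKM in Bcathet and 14.0, 22.0 and 8.6 in Cdx2het_Bcathet (1.36 ± 0.53, and 0.73 without the day 10 library of Bcathet), and Vsig2, an immunoglobulin-domain gene, at 6.33, 6.62 and 6.07 in Bcathet and 10.5, 12.3 and 10.5 in Cdx2het_Bcathet (0.72 ± 0.22). Downward they were Myl7, Gsdmc2, a gasdermin gene, and the small nucleolar RNA entries Snord99, Snord34, Snord42b and Snord100. Gsdmc2 was at 25.7, 23.7 and 4.31 FPKM in Bcathet and 13.4, 14.7 and 2.4 in Cdx2het_Bcathet, and Snord99 at 33.5, 46.7 and 34.6 in Bcathet and 11.5, 15.2 and 23.9 in Cdx2het_Bcathet (-1.18 ± 0.34).

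Interferon response genes and MHC class II genes were higher in Cdx2het_Bcathet at day 8, and this order did not hold at day 9. Interferons act through STAT and IRF factors on a shared set of genes for antiviral enzymes, GTPases and antigen processing, and MHC class II molecules, which present peptides to T cells, can be made by intestinal epithelium under interferon gamma. Of 31 tested interferon response genes 29 were higher in Cdx2het_Bcathet at day 8, 12 at day 9 and 29 at day 10, with median log2 differences of 0.908, -0.145 and 0.507, against 0.0217, -0.00453 and -0.00835 over all tested genes. At equal library totals the counts were 29, 12 and 27. None passed over all genes. An unadjusted p under 0.05 in limma was reached by 4 of the 31, against 372 of all 11834 tested genes. In 1, Ifit3, every Cdx2het_Bcathet library lay above every Bcathet library, against 3.17% of all tested genes. Higher at day 8 and day 10 and lower at day 9 were 18 of the 31, against 14.7% of all genes. In bulk tissue, fewer cells of a kind and less RNA per cell cannot be told apart.

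The members show the pattern by function. Oasl2, an antiviral protein of the oligoadenylate synthetase family, was at 15.2, 25.3 and 18.2 FPKM at days 8, 9 and 10 in Bcathet and at 37.5, 22.5 and 58.7 in Cdx2het_Bcathet, against 24.0, 12.9 and 16.9 in the controls. Its Cdx2het_Bcathet libraries of days 8 and 10 were above all other libraries, and that of day 9 was within the range of the Bcathet set. Rtp4, an interferon-induced regulator of antiviral responses, was at 7.88, 8.68 and 10.0 FPKM in Bcathet and 15.3, 10.2 and 20.5 in Cdx2het_Bcathet (0.68 ± 0.26), and Ifi44, another interferon-induced gene, at 1.44, 1.41 and 1.42 in Bcathet and 8.7, 0.163 and 6.84 in Cdx2het_Bcathet, with its lowest value of all 9 libraries in the Cdx2het_Bcathet library of day 9. Among the interferon-inducible GTPases, Igtp was at 15.4, 23.8 and 59.8 FPKM in Bcathet and 47.7, 14.5 and 85.0 in Cdx2het_Bcathet, so its day 10 level was high in both sets. Tgtp1, which has a close paralog in Tgtp2 so that its own value is uncertain, was at 1.91, 1.91 and 7.35 in Bcathet and 8.63, 0.718 and 11.7 in Cdx2het_Bcathet. Of the transcription factors, Irf7 was at 28.6, 34.2 and 43.5 FPKM in Bcathet and 53.5, 34.7 and 64.5 in Cdx2het_Bcathet, whereas Irf1 differed by at most 0.22 on the log2 scale on any day. Ifit3, an RNA-binding antiviral protein gene, was higher on each day, at 1.8, 1.66 and 2.3 FPKM in Bcathet and 2.54, 3.89 and 4.2 in Cdx2het_Bcathet (0.62 ± 0.21, adjusted p = 1). Ifitm3, a membrane barrier to virus entry that was not on the list, was at 355, 346 and 335 FPKM in Bcathet and 626, 411 and 523 in Cdx2het_Bcathet, without overlap (0.57 ± 0.16, adjusted p = 1).

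All 7 MHC class II genes were higher in Cdx2het_Bcathet at day 8, lower at day 9 and higher by little at day 10, with medians of 1.43, -1.5 and 0.206. H2-Aa, an α chain, was at 78.6, 239 and 157 FPKM in Bcathet, 303, 77.8 and 182 in Cdx2het_Bcathet and 266, 163 and 147 in the controls. Cd74, the invariant chain, was at 601, 1166 and 1035 FPKM in Bcathet and 1622, 383 and 1201 in Cdx2het_Bcathet, and Ciita, the master activator of these genes, at 4.02, 6.11 and 8.27 in Bcathet and 8.96, 2.9 and 9.2 in Cdx2het_Bcathet. The lowest of the Bcathet libraries was that of day 8, and the lowest of the Cdx2het_Bcathet libraries that of day 9, so both pairs hold 1 low library. Without the day 9 library of Cdx2het_Bcathet the median difference between the sets was 0.618 for this list and 0.743 for the interferon list, against 0.071 and 0.366 with it. Markers of immune cells were present. Summed FPKM of T cell and intraepithelial lymphocyte markers was 109, 132 and 35.0 in Bcathet and 90.2, 126 and 32.5 in Cdx2het_Bcathet, against 100.4 to 160.9 in the controls. Of the 16 measured members of that list 10 passed the filter. Summed macrophage and neutrophil markers were at 38.8, 40.5 and 34.9 FPKM in Bcathet and 39.2, 29.5 and 33.7 in Cdx2het_Bcathet. Of the 15 measured members of that list 6 passed the filter, and its member Lyz2 is also on the list of Paneth cell genes. Summed B cell markers were at 3.79, 5.02 and 3.92 in Bcathet and 4.05, 3.85 and 4.19 in Cdx2het_Bcathet. The T cell sum was lower in Cdx2het_Bcathet on every day, whereas the B cell sum was higher at days 8 and 10 and lower at day 9. The T cell members did not all follow their sum: 1, 6 and 3 of the 10 tested were higher at days 8, 9 and 10 (medians -0.341, 0.131 and -0.0718). The B cell sum was low in all these libraries, and 1 of its 7 measured members passed the filter. The part of these cells in the result was not tested.

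Promoters of the interferon genes were searched for 1 motif. The interferon-stimulated response element, bound by STAT and IRF factors, was searched as GAAANNGAAA on both strands in the 250 bases before each RefSeq start site (build GRCm38.p6), overlapping matches included. Of the 31 tested members 24 had a promoter in the table and 15 of these (62.5%) held a match, against 936 of 27025 gene symbols in the table (3.46%) and 978 of all 32851 promoters (2.98%). The list is one of interferon response genes, so this share describes the list and not the difference between the sets. The 6 windows of 60 bases below belong to the members with a match whose smaller difference of days 8 and 10 was largest, a choice made after their values were seen. Each runs 5′ to 3′ on the strand of its gene, with the matched bases in capitals; a match on the opposite strand reads as the reverse complement.
Gbp2 (chr3:142620579-142620638, plus strand): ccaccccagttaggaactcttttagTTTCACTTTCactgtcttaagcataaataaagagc
Cxcl10 (chr5:92349068-92349127, minus strand): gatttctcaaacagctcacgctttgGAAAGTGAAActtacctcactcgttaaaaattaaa
Gbp3 (chr3:142559980-142560039, plus strand): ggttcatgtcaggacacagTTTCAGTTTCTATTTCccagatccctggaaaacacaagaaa
Bst2 (chr8:71537562-71537621, minus strand): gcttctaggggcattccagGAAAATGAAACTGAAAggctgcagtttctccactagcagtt
Tgtp2 (chr11:49064248-49064307, minus strand): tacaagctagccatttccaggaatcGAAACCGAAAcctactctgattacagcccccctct
Tgtp1 (chr11:48992289-48992348, minus strand): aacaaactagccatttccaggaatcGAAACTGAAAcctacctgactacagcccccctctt
In Gbp2 49 bases lie between the match and the start site and in Gbp3 29, with 2 overlapping matches in the windows of Gbp3 and Bst2. Gbp2, a guanylate-binding protein gene, was at 0.926, 0.9 and 1.51 FPKM in Bcathet and 2.91, 1.19 and 3.37 in Cdx2het_Bcathet, and Bst2, the gene of the tether protein tetherin, at 20.2, 23.5 and 31.1 in Bcathet and 52.4, 11.3 and 49.6 in Cdx2het_Bcathet. Cxcl10, a chemokine gene, was at 0.223, 0.68 and 1.02 FPKM in Bcathet and 1.13, 0.91 and 3.34 in Cdx2het_Bcathet. Gbp2 and Cxcl10 each reached 1 FPKM in 1 Bcathet library, so they passed the filter mainly through Cdx2het_Bcathet, where they are high. The 15 members with a match had median differences of 1.02, -0.12 and 0.565 at days 8, 9 and 10, and the 9 without one 0.883, -0.169 and 0.14. Members without these letters in the window include Oasl2, Irf7 and Tap1, and the search says nothing about binding.

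**Figure D4:**
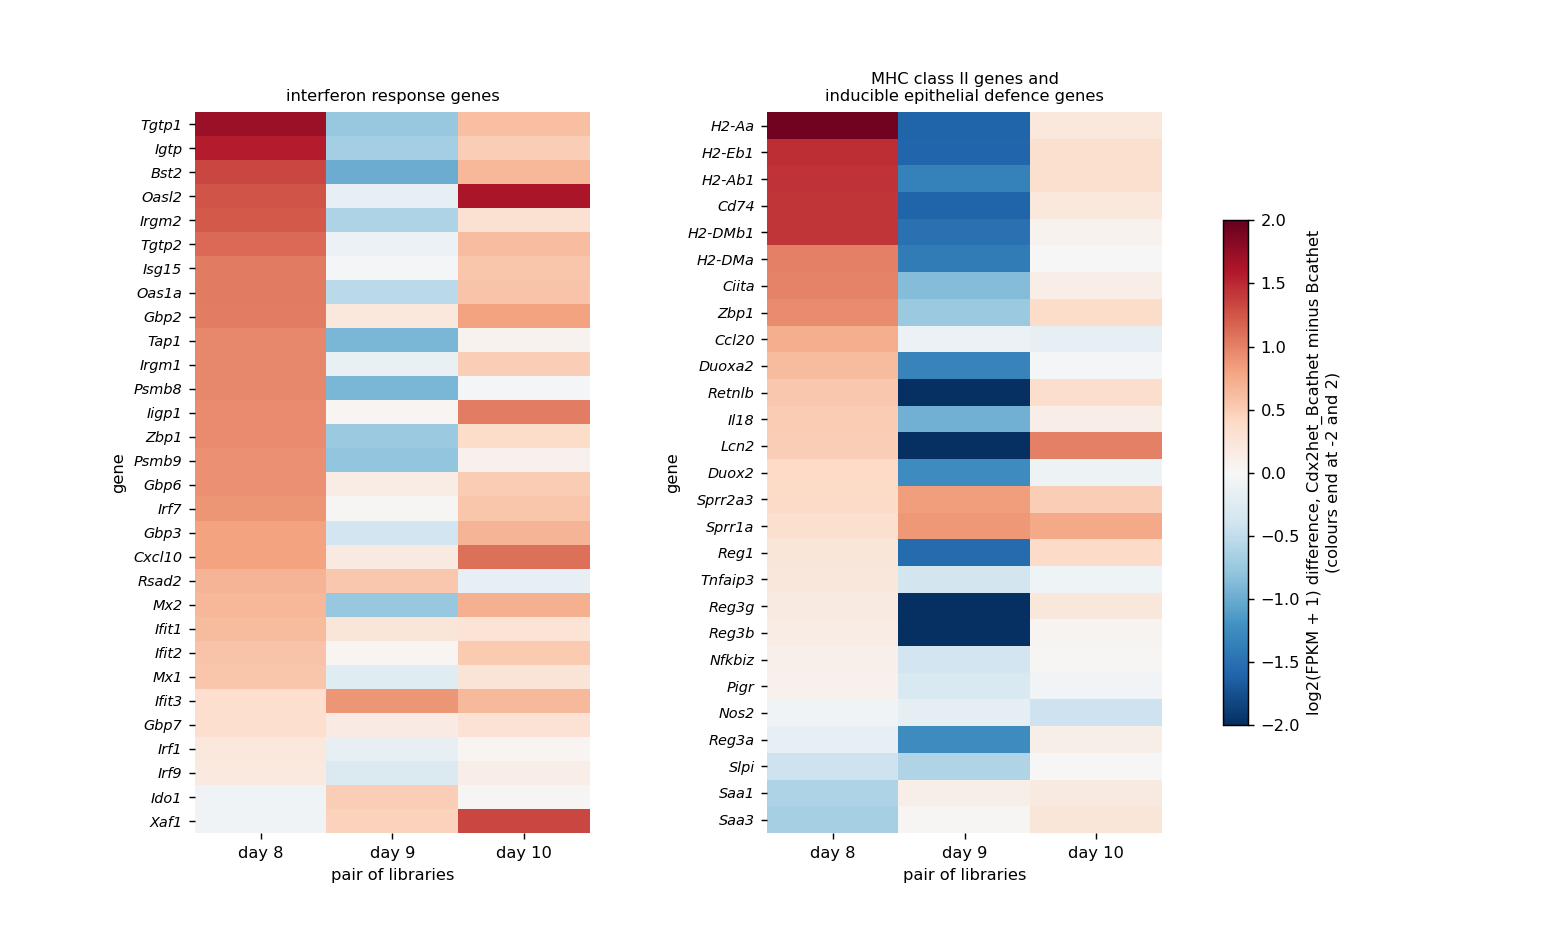
Difference of log2(FPKM + 1), Cdx2het_Bcathet minus Bcathet, for tested genes (rows, 1 interferon response gene not shown) and days (columns), for interferon response genes on the left and for MHC class II and inducible epithelial defence genes on the right; red is higher and blue lower in Cdx2het_Bcathet, with colours ending at -2 and 2. Of the 31 interferon response genes 29 are higher at day 8, 12 at day 9 and 29 at day 10.

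When the comparison was limited to days 8 and 10 with the day as a block, 37 genes passed limma's test (0.313% called), 19 higher and 18 lower. This fit has 4 libraries and 1 residual degree of freedom, so its spread is almost wholly borrowed across genes, and 19 of the 37 are entries for miRNA and small nucleolar RNA genes. Of the 37, 14 met the level and symbol criteria for named genes, and the 6 largest in each direction are given here. Higher were Oasl2 (adjusted p = 0.0165), Rtp4 (0.0165), Ifitm3 (0.0495), Ghrl (0.0414), Vsig2 (0.0495) and Slc51b (0.0495), the last a subunit of the bile acid exporter, at 32.9, 49.2 and 39.0 FPKM in Bcathet and 54.5, 71.1 and 60.8 in Cdx2het_Bcathet. Lower were Snord100 (0.0108), Snord42b (0.0349), Defa20 (0.0398), Pla2g10os (0.0495), Gsdmc2 (0.0495) and Gvin1 (0.0495), the last an interferon-inducible very large GTPase gene. Of the 37, 2 genes, Oasl2 and Iigp1, were on the interferon list. None of the 37 calls was made in the following fits, which kept the controls but also differed in the block or the day 9 libraries. The effect of keeping the controls alone was not tested. Without both day 9 mutant libraries and with no block 0 genes passed in limma (389 at an unadjusted p under 0.05). With the block and without the day 9 library of Cdx2het_Bcathet 0 passed (443). With the block and all 9 libraries 0 passed as well (403).

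Inducible defence genes of the epithelium differed most at day 9. The 8 well-expressed genes with the largest lower values in Cdx2het_Bcathet at day 9 were Xist, Reg3b, B3galt5, Lrg1, Cfhr2, Reg3g, Retnlb and Snora44. Reg3b, a secreted antibacterial lectin with the close paralog Reg3g, was at 23215, 15581 and 36442 FPKM at days 8, 9 and 10 in Bcathet and at 25636, 802 and 37914 in Cdx2het_Bcathet, against 3803, 1150 and 2322 in the controls. The day 9 library of Cdx2het_Bcathet lay below every control, and the other 5 mutant libraries lay well above them. Lrg1, a secreted glycoprotein of the acute phase, was at 73.0, 27.0 and 306 FPKM in Bcathet and 228, 1.43 and 536 in Cdx2het_Bcathet, B3galt5, a galactosyltransferase, at 63.7, 61.9 and 139 in Bcathet and 122, 2.97 and 134 in Cdx2het_Bcathet, and Retnlb, a goblet cell antibacterial protein, at 77.8, 26.2 and 201 in Bcathet and 113, 1.9 and 257 in Cdx2het_Bcathet. On the list of inducible epithelial defence genes, 4 of 20 tested members were higher in Cdx2het_Bcathet at day 9, with medians of 0.236, -0.667 and 0.123 for the 3 days. Lcn2, an iron-withholding lipocalin, was at 62.7, 20.2 and 66.7 FPKM in Bcathet and 88.9, 4.00 and 135 in Cdx2het_Bcathet, and Duox2, an oxidase that makes hydrogen peroxide at the gut surface, at 90.6, 65.1 and 145 in Bcathet and 120.1, 26.6 and 135 in Cdx2het_Bcathet. The median of the list was 0.379 without the day 9 library of Cdx2het_Bcathet, against -0.165 with it.

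Genes of mature enterocytes and of the crypt base were higher in the same day 9 library. Upward, the 8 largest day 9 differences were those of Cyp3a11, Pnliprp2, Nkd1, Lct, Cyp3a25, Cyp2b10, Clca4a and Ifitm1. Cyp3a11, a drug-metabolising cytochrome, was at 18.5, 39.4 and 0.953 FPKM in Bcathet, 5.13, 230.2 and 1.01 in Cdx2het_Bcathet and 164, 58.9 and 92.9 in the controls. Lct, which digests milk sugar, was at 11.7, 21.1 and 2.58 FPKM in Bcathet and 3.18, 98.1 and 3.1 in Cdx2het_Bcathet, with 138, 50.3 and 48.1 in the controls, and Pnliprp2, a pancreatic-type lipase, at 31.8, 9.57 and 21.4 in Bcathet and 27.5, 58.9 and 23.1 in Cdx2het_Bcathet. For Cyp3a11 and Lct the mutant libraries apart from this one were all below the controls. Of 31 tested enterocyte genes 27 were higher in Cdx2het_Bcathet at day 9, 15 at day 8 and 22 at day 10 (medians 0.521, -0.00839 and 0.12).

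WNT target genes and crypt base stem cell markers were higher in Cdx2het_Bcathet at day 9, in 14 of 17 and 19 of 20 tested members, with medians of 0.798 and 0.703. At day 8 they were higher in 4 of 17 and 3 of 20, with medians of -0.11 and -0.221, and at day 10 in 11 and 18, with medians of 0.146 and 0.209. Nkd1, a feedback inhibitor of WNT signalling, was at 6.48, 5.31 and 1.4 FPKM in Bcathet, 10.9, 27.5 and 5.86 in Cdx2het_Bcathet and 2.25, 1.88 and 2.25 in the controls, and the Cdx2het_Bcathet value was higher on every day (1.45 ± 0.56, adjusted p = 1). The Nkd1 difference was 0.90 ± 0.49 without the day 9 library of Cdx2het_Bcathet and 0.95 without the day 10 library of Bcathet. Notum, a secreted enzyme that inactivates WNT ligands, was at 0.817, 1.12 and 0.394 FPKM in Bcathet and 2.46, 12.5 and 1.57 in Cdx2het_Bcathet, without overlap (1.50 ± 0.55), and without the day 9 library the difference was 0.77 ± 0.21. Prox1, a homeobox target of the pathway, was at 1.35, 0.929 and 0.544 FPKM in Bcathet and 2.37, 3.72 and 1.66 in Cdx2het_Bcathet, without overlap (0.86 ± 0.22). Notum and Prox1 each reached 1 FPKM in 1 Bcathet library and in all 3 of Cdx2het_Bcathet, so they passed the filter through the set where they are high. Axin2, the general feedback inhibitor, was at 56.3, 47.5 and 37.4 FPKM in Bcathet and 47.9, 78.1 and 42.8 in Cdx2het_Bcathet (0.22 ± 0.23), a difference whose sign turned without the day 9 library of Cdx2het_Bcathet (-0.04 ± 0.16). It was 0.36 or 0.07 without the day 8 or the day 10 library of Bcathet and 0.39 without the day 10 library of Cdx2het_Bcathet. Lgr5, the stem cell receptor for R-spondin, was at 25.6, 11.9 and 9.79 FPKM in Bcathet and 20.1, 32.7 and 18.1 in Cdx2het_Bcathet (0.63 ± 0.34, adjusted p = 1), and Olfm4, a secreted stem cell marker, at 1003, 699 and 573 in Bcathet and 754, 1202 and 724 in Cdx2het_Bcathet (0.24 ± 0.24). Both were lower in Cdx2het_Bcathet at day 8 and higher at days 9 and 10. Without the day 9 library of Cdx2het_Bcathet the difference was 0.38 ± 0.35 for Lgr5 and 0.0014 for Olfm4. Other single libraries moved them by over 1.5 times too: without the day 8 or the day 10 library of Bcathet the difference was 1.02 or 0.37 for Lgr5 and 0.46 or 0.05 for Olfm4, and without the day 10 library of Cdx2het_Bcathet it was 0.37 for Olfm4. Igfbp4, an IGF-binding protein made at the crypt base, was at 81.8, 56.4 and 52.3 FPKM in Bcathet and 88.3, 154 and 83.8 in Cdx2het_Bcathet, without overlap (0.74 ± 0.27, adjusted p = 1, and 0.46 ± 0.21 without the day 9 library of Cdx2het_Bcathet). Without that library the median over the WNT list was 0.0179, against 0.221 with it, and over the stem cell list 0.0157, against 0.209.

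**Figure D5:**
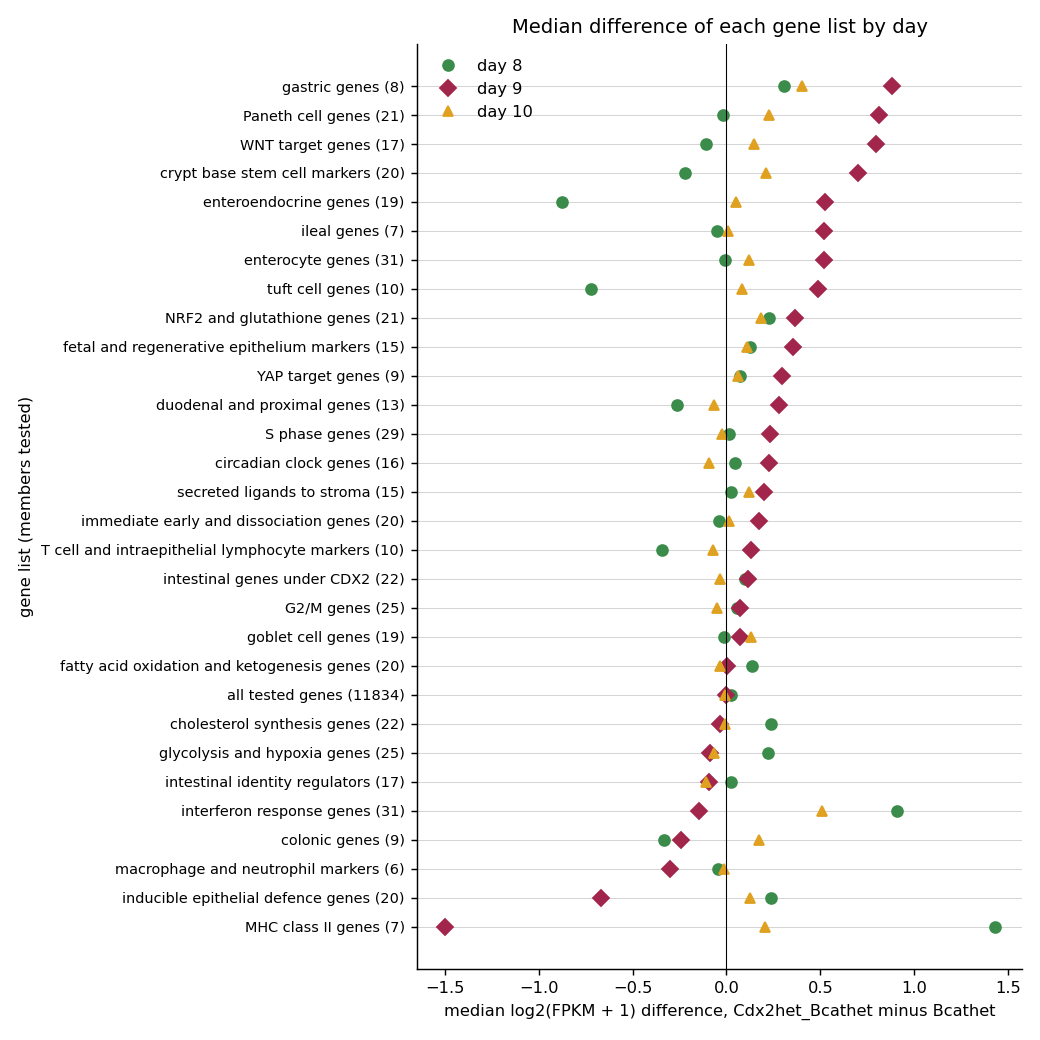
Median difference of log2(FPKM + 1), Cdx2het_Bcathet minus Bcathet, for each gene list with at least 5 tested members, in order of the day 9 value; green circles are day 8, red diamonds day 9 and yellow triangles day 10, with the number of tested members in brackets. MHC class II genes run from -1.5 at day 9 to 1.43 at day 8, while the median over all tested genes is near 0 on each day.

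Genes of secretory and tuft cells varied with the day as well. Of 21 tested Paneth cell genes 10, 19 and 14 were higher in Cdx2het_Bcathet at days 8, 9 and 10 (medians -0.0163, 0.814 and 0.228), and the sum over the list was 46309, 24751 and 49073 FPKM in Bcathet and 48201, 53092 and 58536 in Cdx2het_Bcathet. The low library of this list was the day 9 library of Bcathet. Lyz1, the lysozyme gene, was at 3877, 2091 and 3747 FPKM in Bcathet and 3834, 4252 and 4063 in Cdx2het_Bcathet (0.37 ± 0.23, adjusted p = 1), and without the day 9 library of Bcathet the difference was 0.09. Defa6, a defensin gene whose near-identical relatives make its own value uncertain, was at 4.62, 5.13 and 6.09 FPKM in Bcathet and 8.23, 7.05 and 11.6 in Cdx2het_Bcathet, without overlap (0.65 ± 0.23), against 33.8, 19.7 and 21.3 in the controls. Enteroendocrine genes other than Ghrl were lower in Cdx2het_Bcathet at day 8: 1 of 19 tested members, Ghrl, was higher, with a median of -0.875, against 16 at day 9 and 13 at day 10 (medians 0.527 and 0.053). Chga, a granule protein of endocrine cells, was at 119, 64.0 and 46.0 FPKM in Bcathet and 65.3, 131 and 62.6 in Cdx2het_Bcathet, Gip, an incretin hormone gene, at 96.4, 85.7 and 44.9 in Bcathet and 36.9, 76.3 and 48.1 in Cdx2het_Bcathet, and Sst, the somatostatin gene, at 76.1, 32.7 and 10.9 in Bcathet and 22.4, 61.3 and 16.3 in Cdx2het_Bcathet. Of the 10 tested tuft cell genes, markers of a chemosensory cell, 0 were higher at day 8, 10 at day 9 and 7 at day 10 (medians -0.72, 0.485 and 0.084). Trpm5, their taste channel, was at 4.86, 4.28 and 1.33 FPKM in Bcathet and 2.34, 6.32 and 1.64 in Cdx2het_Bcathet. In goblet cell genes the medians lay between -0.012 and 0.129 on each day.

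Lists tied to Cdx2 and to the stomach were read because of the sample names. Of 17 tested intestinal identity regulators, Cdx2 was the 1 whose sets did not overlap upward (3.17% of all tested genes). Downward 2 did not overlap, among them the nuclear receptor gene Hnf4g (3.08% of all), and the median of the list was -0.0728. In 22 tested intestinal genes under CDX2 0 had non-overlapping sets and the median was 0.0466. Of 23 measured gastric genes 8 passed the filter. Of these, 3 had every Cdx2het_Bcathet library above every Bcathet library (3.17% of all tested genes), Gkn3 and Pgc among them. In 1 every one lay below (3.08% of all). Pgc, the pepsinogen C gene, was at 4.85, 4.46 and 2.14 FPKM in Bcathet and 5.52, 22.7 and 6.18 in Cdx2het_Bcathet (1.16 ± 0.48, adjusted p = 1), with 1 high library at day 9, without which the difference was 0.56 ± 0.25. Cblif, the gastric intrinsic factor gene, was at 0.385, 0.0393 and 1.03 FPKM in Bcathet and 2.22, 1.22 and 1.28 in Cdx2het_Bcathet, against 2.46, 0.657 and 3.24 in the controls. It passed the filter through Cdx2het_Bcathet, where it is high, and its sets do not overlap. A count of non-overlapping genes that includes such a gene is in part fixed by the filter. Gkn3 is also on the list of crypt base stem cell markers. The defining stomach genes Sox2 and Muc5ac were at 0 in every library, Gkn1 at most 0.29 FPKM and Muc6 at most 0.0953. The median of the 8 genes was 0.573 without the day 9 library of Cdx2het_Bcathet, against 0.773 with it.

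Ly6a, which encodes the fetal and regenerative marker Sca-1, changed order between days: it was at 19.7, 14.5 and 58.8 FPKM in Bcathet, 77.8, 3.06 and 112 in Cdx2het_Bcathet and 3.36, 3.07 and 3.7 in the controls (0.30 ± 1.16). Without the day 9 library of Cdx2het_Bcathet the difference was 1.81 ± 0.53, and leaving out any 1 of the 6 mutant libraries moved it by over 1.5 times or turned it, from -0.58 to 1.81. It was higher in Cdx2het_Bcathet at days 8 and 10 and lower at day 9, the order also seen in the median of the interferon list. In 15 tested fetal and regenerative markers 8, 14 and 9 were higher at the 3 days (medians 0.124, 0.356 and 0.112). Gsta3, a glutathione transferase, was at 2.92, 6.08 and 6.68 FPKM in Bcathet and 9.38, 8.11 and 10.4 in Cdx2het_Bcathet, without overlap (0.78 ± 0.23, adjusted p = 1, and 0.47 without the day 8 library of Bcathet). Among 21 NRF2 and glutathione genes 11 were higher and 0 lower on all days, against 1462 and 1362 of all 11834 tested genes. At equal library totals 14, 14 and 16 were higher at the 3 days. The median of this list was 0.0432 without the day 9 library of Cdx2het_Bcathet, against 0.26 with it.

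Markers of cells outside the epithelium differed between libraries of the same set. Summed fibroblast markers were at 18.3, 20.6 and 4.48 FPKM in Bcathet and 10.2, 27.7 and 6.00 in Cdx2het_Bcathet, against 8.305 to 9.413 in the controls, and 4 of 18 measured members passed the filter. Red blood cell markers summed to 39.6, 22.8 and 6.97 FPKM in Bcathet and 4.53, 13.0 and 1.57 in Cdx2het_Bcathet, with Hbb-bs, a β-globin gene, at 10.4, 7.42 and 2.49 in Bcathet and 0.587, 1.91 and 0.249 in Cdx2het_Bcathet, without overlap (-1.96 ± 0.47, adjusted p = 0.899); it passed the filter mainly through Bcathet, where it is high. Summed endothelial markers were at 7.01, 6.10 and 6.01 FPKM in Bcathet and 5.80, 8.26 and 5.87 in Cdx2het_Bcathet, and 2 of 11 measured members passed the filter. Enteric neuron and glia markers summed to 2.65, 1.63 and 1.60 FPKM in Bcathet and 1.66, 2.38 and 2.32 in Cdx2het_Bcathet, and 0 of 9 passed. Among the lowest members, Emcn and Sox10 were at 0 in every library and Kdr and Cdh5 at most 0.0175 and 0.13 FPKM. Epithelial genes were high in every library, with Tff3 at least 1882 FPKM and Fabp1 at least 523. The part of these other cells in the differences above was not tested.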

How the data were processed

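Per the labels, poly(A) RNA of mouse crypt epithelium was sequenced in 9 libraries, and the authors deposited 1 table of FPKM values per gene symbol. That the values are FPKM was read from the table itself. Per the submitters' processing notes, the tools were kallisto 0.46.1 and DESeq2 1.40.1 and the build was mm9, with no role stated for any. The median ratio of each library to the geometric mean over the 15138 genes above 0 in all libraries was 1.00276, so the deposited FPKM had been scaled between libraries before deposit. One FPKM corresponded to 15.9 to 17.9 fragments per kilobase, as read from steps of low values.

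Here, values were taken as log2(FPKM + 1), and a gene was kept when 3 or more of the 6 mutant libraries reached 1 FPKM. Limma 3.58.1 in R 4.3.3 fitted the means of all 3 groups over 9 libraries, with trend and robust settings and Benjamini-Hochberg adjustment at 0.05. Single values were tested by exact permutation in Python 3.11.15 with scipy 1.17.1. The fit was tested on simulated data. Libraries of the same day share that day per the labels; the deviations of the 2 mutant libraries from their set means had correlations of -0.032, 0.412 and 0.635 at days 8, 9 and 10, and the fit with the day as a block was an alternative. Named genes had a mean log2(FPKM + 1) of at least 3 and a proper symbol, and were those with the smallest p and no overlap, the largest day 9 differences, the largest differences of 1 sign on every day, the largest calls of the blocked fit, up to 3 per list and a few fixed genes; others named were chosen after their values were seen. The comparison and the gene lists were chosen with earlier results of these data known. Gene order and promoters came from RefSeq (GRCm38.p6); no coordinate of the deposited build was used. Other alternatives were another pseudocount, other filters, equal library totals, array weights, no trend, the 6 libraries alone and leaving out libraries. Some items are not reported here.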

Additional observations from a re-analysis of the deposited data

Results flagged for a closer look

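The 4 Y-linked genes of the day 9 library of Cdx2het_Bcathet summed to 41.7 FPKM, a signal outside the main measurement that was at most 0.047 FPKM in the controls. At day 9 the median log2 difference between the sets was -0.145 for interferon response genes, -1.5 for MHC class II genes and -0.667 for inducible epithelial defence genes, opposite in sign to day 8 and day 10 in each list. The difference between days was not tested, since each set has 1 library per day.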

How the results depend on the processing

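With limma, 0 genes passed in the comparison of all 9 libraries and also with a replicate block by day (403 at an unadjusted p under 0.05), in the 6 libraries alone, with no filter, at 5 FPKM and at equal totals. The count was 2 with a pseudocount of 0.1 (2610528A11Rik and Mir140), 3 with array weights (2610528A11Rik, Myl7 and Pcsk6), 1 without trend and robust settings (2610528A11Rik), and 0 to 2 when each library was left out. The replicate block on the 4 mutant libraries of days 8 and 10 alone gave 37; that fit also leaves out the controls and both day 9 mutant libraries, and without both day 9 mutant libraries but with no block, or with the block and without the day 9 library of Cdx2het_Bcathet, 0 passed. The replicate block made no call in any other fit. Axin2 turned to -0.0208 without both day 9 libraries, with or without the block, to -0.0252 in the blocked fit without the day 9 library of Cdx2het_Bcathet, and ranged from -0.0370 to 0.39 when each library was left out; Olfm4 turned to -0.0375 without both day 9 libraries, with or without the block. Ly6a ranged from -0.58 to 1.81 when each library was left out. The median of gastric genes was 1.09 with a pseudocount of 0.1.

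The following settings were chosen after seeing the data. With a pseudocount of 0.1, genes differing by 1 or more were 137 higher and 182 lower at day 8, 328 and 202 at day 9, and 151 and 95 at day 10. With a filter of 5 FPKM they were 47 and 45 at day 8, 125 higher at day 9, and 26 and 20 at day 10. At equal totals 147 genes had every Cdx2het_Bcathet library above, and 810 were higher at days 8 and 10 and lower at day 9. Without the day 9 library of Cdx2het_Bcathet 1154 genes lay above and 969 below without overlap, with 2 libraries against 3. The cause of these shifts was not tested.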
